A study of Arabidopsis thaliana with 8 samples.

Results

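The genes described here are 7 listed Arabidopsis loci of cytokinesis and endosperm cellularization, given by their gene IDs. They are KNOLLE (AT1G08560), SNAP33 (AT5G61210), KEULE (AT1G12360), HINKEL (AT1G18370), MAP65-3 (AT5G51600), EDE1 (AT2G44190) and AT1G50230, which was listed for the kinase TIO. Of the 37329 genes in each deposited table, 6 are these genes, and AT1G50230 was not analysed here. RefSeq gives the name FUSED (FU) to the adjacent locus AT1G50240, so the values of FU are shown separately. FU was added after its values were seen and is in no count.

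Endosperm is the nourishing tissue of the seed. It first grows as a syncytium, in which nuclei divide without walls, and then cellularizes. Walls form where a phragmoplast, an array of microtubules, guides vesicles to the division plane, and the vesicles fuse there into a cell plate. KNOLLE is the cytokinesis syntaxin of that fusion, SNAP33 is its SNAP25-type partner and KEULE is the Sec1/Munc18 protein that binds KNOLLE. HINKEL is a kinesin needed for turnover of phragmoplast microtubules, MAP65-3 (PLEIADE) bundles antiparallel microtubules at the phragmoplast midzone, and EDE1 is a microtubule-associated protein found through its defect in endosperm development. TIO/FUSED is a protein kinase needed for phragmoplast expansion.

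Endosperm mRNA was sequenced at 7 days after pollination from F1 seeds of Ler mothers and Col-0 fathers, in a study of NRPD1, the gene for the largest Pol IV subunit. Pol IV is the source of most small interfering RNAs of RNA-directed DNA methylation. In mat nrpd1+/- the Ler mother was nrpd1-/- and the Col-0 father was wild type, in pat nrpd1+/- a wild-type Ler mother was crossed to a Col-0 nrpd1-/- father, in nrpd1-/- both parents were nrpd1-/-, and in WT both were wild type. The sample labels list 3 mat nrpd1+/-, 3 nrpd1-/- and 2 WT libraries. The libraries of pat nrpd1+/- are not among these samples, and its values were taken from the column that carries its name. The mutation is the T-DNA allele nrpd1a-4 of Col-0, which had been crossed into Ler. The Ler nrpd1-/- mothers therefore keep Col-0 sequence in 12 regions, and mat nrpd1+/- and nrpd1-/- seeds inherit these regions from the mother.

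The deposited tables give 1 value per gene and genotype, in FPKM (fragments scaled to transcript length and library size), pooled by the authors over libraries. The values therefore have no replicate error, no difference below was tested, and the number of reads behind a value is unknown. Each mutant value is compared with the WT column of the same table as log2 of mutant over WT after adding 0.1 FPKM to both. A gene is said to be lower or higher when it was past 2-fold. All genes outside the introgressed regions with a mean of at least 1 FPKM in the 2 columns serve as the background. The WT columns of the mat nrpd1+/- and pat nrpd1+/- tables are 1 set of values up to scale, since no gene of 13766 differed by 2-fold after centring. These comparisons therefore share their WT. The WT column of the nrpd1-/- table is another set, in which 36.6% of 13937 genes differed by at least 2-fold from the WT column of the mat nrpd1+/- table after centring. The study's library list also gives different read lengths for the mat nrpd1+/-, the nrpd1-/- and the listed WT libraries, so genotype and sequencing run cannot be told apart in these values.

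The labels were checked as far as the values allow. NRPD1 (AT1G63020) was at 2.08 FPKM in mat nrpd1+/- against 2.28 FPKM in WT, at 0.845 FPKM in pat nrpd1+/- against 2.01 FPKM in WT, and at 2.08 FPKM in nrpd1-/- against 4.34 FPKM in WT. A value over the whole gene does not separate transcript before and after the insertion, so it does not check the genotype. Of 9 endosperm genes fixed as markers, ZOU, ALE1 and SUC5 were at 31.6 FPKM or more in every column, while the early endosperm genes IKU2 and MINI3 were listed at 0.0338 FPKM or less in every column. ZOU, ALE1 and SUC5 all lie in introgressed regions, and no endosperm marker outside these regions reached a mean of 1 FPKM. The endosperm sums therefore rest on genes left out of the counts below. The 9 summed to 338, 240 and 293 FPKM in mat nrpd1+/-, pat nrpd1+/- and nrpd1-/-, against 324, 285 and 298 FPKM in WT. The 8 seed coat genes summed to 201, 136 and 191 FPKM in the mutants in that order, against 167, 147 and 231 FPKM in WT. These sums hide genes that went opposite ways. In nrpd1-/-, BAN was at 30.8 FPKM against 8.84 FPKM in WT and TTG2 at 11.8 against 2.09 FPKM. In the same column TT10 was at 86.2 against 101 FPKM and MUM4 at 47.7 against 93.9 FPKM. The 11 embryo genes summed to 52.3, 47.8 and 58.7 FPKM in the mutants, against 67.3, 59.5 and 85.6 FPKM in WT. In these bulk samples, fewer dividing cells and less transcript per cell cannot be told apart.

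The upstream sequences shown are those of the 4 members in which the core described next was found. Of these, KNOLLE, HINKEL and MAP65-3 were lower than WT in nrpd1-/-, MAP65-3 with the WT column of that table alone. SNAP33 stayed near WT. Genes that peak at mitosis in plants often carry the MSA (mitosis-specific activator) element, which MYB3R transcription factors bind and whose core is AACGG. The core was searched on both strands (AACGG or CCGTT) in the 250 bases before the annotated gene start, from the RefSeq annotation and sequence of TAIR10.1. It was found in 4 of 6 members and in 20.6% of 27437 protein-coding genes, and 2 or more matches were found in MAP65-3 and in 3.62% of genes. The windows of KEULE, EDE1 and FU had no match, which says only that these letters are not in these windows. EDE1 and FU were also lower than the WT column of the nrpd1-/- table in nrpd1-/- (log2 ratios −1.90 and −1.96), and KEULE was not (−0.30). Capitals mark the core, the sequences read 5′ to 3′ on the strand of the gene, and the last base is next to the gene start.
KNOLLE: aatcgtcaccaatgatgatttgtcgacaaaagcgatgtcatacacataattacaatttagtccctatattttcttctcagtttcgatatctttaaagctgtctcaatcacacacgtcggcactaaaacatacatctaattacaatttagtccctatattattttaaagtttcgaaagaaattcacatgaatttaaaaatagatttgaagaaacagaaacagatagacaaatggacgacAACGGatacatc
HINKEL: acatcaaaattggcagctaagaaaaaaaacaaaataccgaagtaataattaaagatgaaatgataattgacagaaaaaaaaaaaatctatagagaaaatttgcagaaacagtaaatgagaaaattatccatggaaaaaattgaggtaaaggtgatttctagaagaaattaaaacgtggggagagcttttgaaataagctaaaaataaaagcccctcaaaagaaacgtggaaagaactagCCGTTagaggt
MAP65-3: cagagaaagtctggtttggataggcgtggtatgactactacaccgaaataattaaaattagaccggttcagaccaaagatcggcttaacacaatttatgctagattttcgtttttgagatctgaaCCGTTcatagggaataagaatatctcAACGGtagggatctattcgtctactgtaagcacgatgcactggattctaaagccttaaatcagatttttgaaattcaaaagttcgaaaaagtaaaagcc
SNAP33: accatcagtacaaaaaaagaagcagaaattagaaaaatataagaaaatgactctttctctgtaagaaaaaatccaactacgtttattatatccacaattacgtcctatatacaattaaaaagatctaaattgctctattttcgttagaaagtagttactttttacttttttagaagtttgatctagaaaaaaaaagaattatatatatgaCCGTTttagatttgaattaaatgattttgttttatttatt
The KNOLLE window is chr1:2711001-2711250 on the minus strand, with the core beginning 12 bases before the gene start. The HINKEL window is chr1:6324379-6324628 on the minus strand, with a reverse match 11 bases before the start. The MAP65-3 window is chr5:20964538-20964787 on the minus strand, with a reverse match 125 bases and a forward match 99 bases before the start. The SNAP33 window is chr5:24622998-24623247 on the plus strand, with a reverse match 40 bases before the start. These 4 windows overlap no annotated exon of another gene. A match is a run of letters and not a shown binding site, and SNAP33 has one as KNOLLE, HINKEL and MAP65-3 do.

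KNOLLE was the most abundant of these transcripts in all 6 columns, and it was at less than 50% of WT in both genotypes whose mother lacked NRPD1. It lies on chromosome 1 of TAIR10.1 from 2709525 to 2711000 on the minus strand. KNOLLE was at 165 FPKM in mat nrpd1+/- against 355 FPKM in WT, which is 46.6% of WT (log2 ratio −1.10). In pat nrpd1+/- it was at 321 FPKM against 312 FPKM in WT, or 103% (log2 ratio 0.04). In nrpd1-/- it was at 135 FPKM against 346 FPKM in WT, or 39.1% (log2 ratio −1.35). KNOLLE was thus low in the 2 mutant columns with nrpd1-/- mothers and level with WT in the column with a nrpd1-/- father only. Its WT values differed by a factor of 1.09 between the nrpd1-/- and mat nrpd1+/- tables after centring, and with the WT columns exchanged (mat nrpd1+/- and pat nrpd1+/- against WT of the nrpd1-/- table, nrpd1-/- against WT of the mat nrpd1+/- table) KNOLLE was at −1.22 in mat nrpd1+/- and −1.23 in nrpd1-/-. It was no longer past 2-fold in mat nrpd1+/- when columns were scaled to nuclear genes (−0.54) or when the trend with transcript length was removed (−0.89), both described below, whereas in nrpd1-/- it stayed past 2-fold under both.

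The width of the background sets how far that value stands out. In mat nrpd1+/-, 16.3% of 14169 genes were at least 2-fold lower than WT and 13.4% were at least 2-fold higher, and KNOLLE was at percentile 14.4 of the log2 ratios. In nrpd1-/-, 10.1% of 13674 genes were at least 2-fold lower and 10.4% at least 2-fold higher, and KNOLLE was at percentile 6.45. In pat nrpd1+/-, 6.92% of 13622 genes were at least 2-fold lower and 4.32% at least 2-fold higher, and KNOLLE was at percentile 49.1. A decrease of the size seen in mat nrpd1+/- was therefore common among all genes of that table. The plot of levels shows each pooled value next to its WT.

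**Figure D1:**
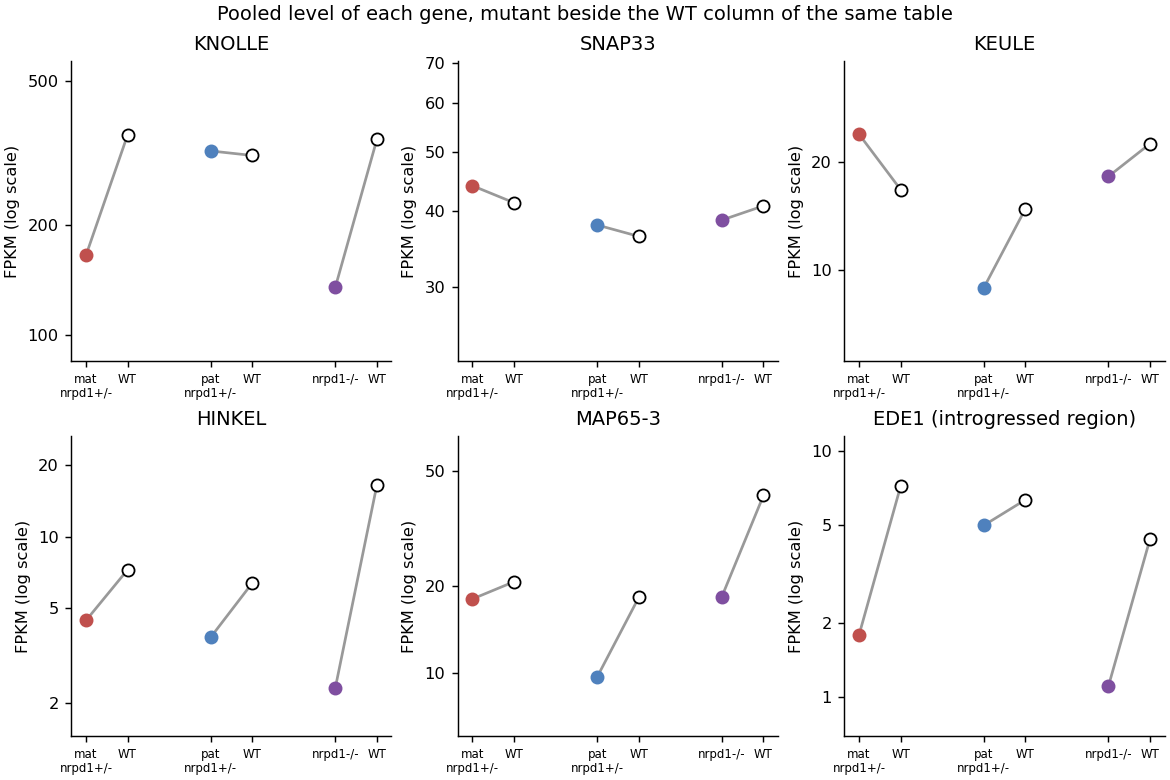
Pooled FPKM (log scale, a different range in each panel) of the 6 genes in each mutant column (filled points) and in the WT column of the same table (open points), joined by a line; there are no error bars because each point is the authors' single pooled value. KNOLLE is low in mat nrpd1+/- (165 FPKM) and nrpd1-/- (135 FPKM) and level with WT in pat nrpd1+/-, SNAP33 is level throughout, and HINKEL and MAP65-3 have a higher WT value in the nrpd1-/- table than in the others.

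SNAP33, the partner that joins KNOLLE in the fusion complex and also serves other plasma membrane syntaxins, was near WT in every genotype. It lies on chromosome 5 from 24623248 to 24625631 on the plus strand. Its level was 44.0 FPKM in mat nrpd1+/- against 41.3 FPKM in WT, 37.9 FPKM in pat nrpd1+/- against 36.3 FPKM in WT, and 38.7 FPKM in nrpd1-/- against 40.8 FPKM in WT. The log2 ratios were 0.09, 0.06 and −0.08. SNAP33 had the narrowest range of log2 ratios of the 6 genes.

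A ratio of 2 genes inside 1 column does not depend on how the authors scaled it, so KNOLLE was also expressed relative to SNAP33. There were 3.76 KNOLLE FPKM for each SNAP33 FPKM in mat nrpd1+/- against 8.59 in WT. In nrpd1-/- there were 3.50 against 8.47 in WT. With the father alone mutant, pat nrpd1+/- had 8.45 against 8.57 in WT. The 3 WT columns thus gave nearly the same ratio, although the nrpd1-/- table holds another set of WT values, and the ratio was below WT in both columns with nrpd1-/- mothers. On the log2 scale this ratio differed from WT by −1.19 in mat nrpd1+/-, by −0.02 in pat nrpd1+/- and by −1.28 in nrpd1-/-.

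KEULE, which binds KNOLLE and assists complex formation, was not lower than WT with KNOLLE. It lies on chromosome 1 from 4200864 to 4206486 on the plus strand. KEULE was at 23.8 FPKM in mat nrpd1+/- against 16.7 FPKM in WT (log2 ratio 0.51), at 8.89 FPKM in pat nrpd1+/- against 14.8 FPKM in WT (log2 ratio −0.73), and at 18.2 FPKM in nrpd1-/- against 22.4 FPKM in WT (log2 ratio −0.30). None of these was past 2-fold. KEULE had a positive log2 ratio in mat nrpd1+/- and a negative one in pat nrpd1+/-, and with the WT column of the nrpd1-/- table its value in mat nrpd1+/- was −0.07 and that in pat nrpd1+/- was −1.30, past 2-fold. The KNOLLE to KEULE ratio was 6.93 in mat nrpd1+/- against 21.2 in WT, 36.1 in pat nrpd1+/- against 21.1 in WT, and 7.43 in nrpd1-/- against 15.4 in WT. The 2 transcripts differ in length (1386 and 2651 bases), so this ratio carries the length trend described below. With that trend removed, KNOLLE and KEULE were at −0.26 and −0.21 in pat nrpd1+/-. They were at −0.89 and 0.36 in mat nrpd1+/- and at −1.44 and −0.08 in nrpd1-/-.

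In the files KNOLLE, SNAP33 and KEULE share a merged locus with adjacent genes. The adjacent gene AT1G08550 was at 5.91 FPKM in mat nrpd1+/- against 7.44 FPKM in WT and at 8.73 FPKM in nrpd1-/- against 6.80 FPKM in WT. All 6 of its values were far below those of KNOLLE. Next to KEULE, AT1G12370 was between 1.92 and 3.51 FPKM in all columns. Beside SNAP33, AT5G61220 was at a like level, between 35.3 and 58.2 FPKM, and whether reads are split between them was not tested.

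**Figure D2:**
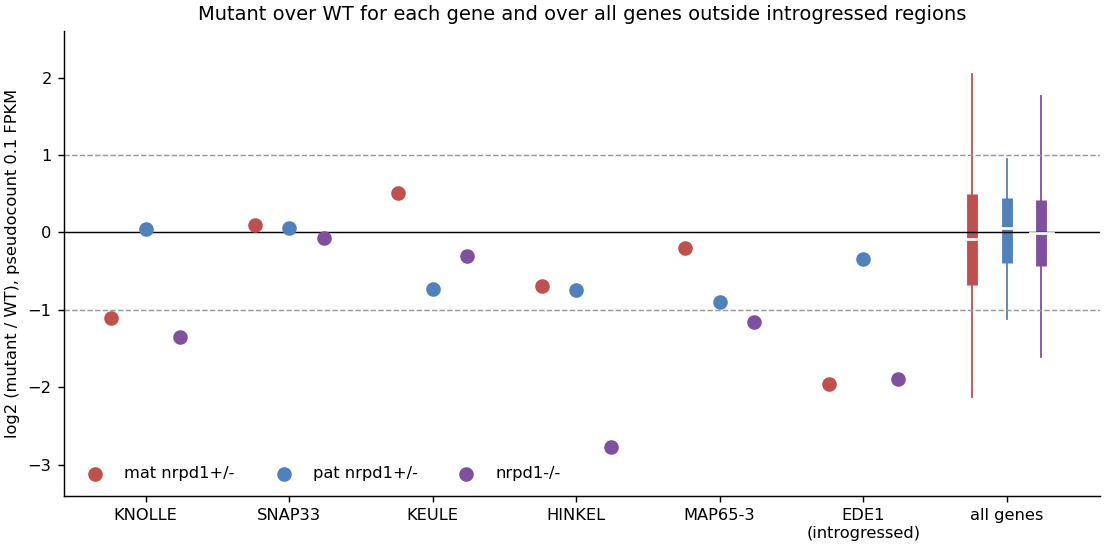
Log2 of mutant over WT with a pseudocount of 0.1 FPKM for the 6 genes in mat nrpd1+/-, pat nrpd1+/- and nrpd1-/- (points), and for all genes outside introgressed regions (thick bars, middle 50%; thin lines, middle 90%; white lines, median); dashed lines mark 2-fold. KNOLLE (−1.10 in mat nrpd1+/-), HINKEL (−2.78 in nrpd1-/-), MAP65-3 (−1.15 in nrpd1-/-) and EDE1 (−1.95 in mat nrpd1+/-) lie below the 2-fold line in at least 1 genotype, and no gene lies above the upper line.

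HINKEL, the phragmoplast kinesin, had the largest log2 ratio below 0 of the 6 genes, in nrpd1-/-. It lies on chromosome 1 from 6319450 to 6324378 on the minus strand. HINKEL was at 2.32 FPKM in nrpd1-/- against 16.5 FPKM in WT, which is 14.1% of WT (log2 ratio −2.78, percentile 1.43 of all genes). It was at 4.44 FPKM in mat nrpd1+/- against 7.25 FPKM in WT (log2 ratio −0.69) and at 3.77 FPKM in pat nrpd1+/- against 6.38 FPKM in WT (log2 ratio −0.74), neither past 2-fold. The mutant columns were all below WT, and the WT column of the nrpd1-/- table was the one that stood apart. After centring, WT HINKEL was 2.52 times higher in the nrpd1-/- table than in the mat nrpd1+/- table, at percentile 90.3 of genes. Set against the WT column of the mat nrpd1+/- table, the log2 ratio in nrpd1-/- was −1.44, still past 2-fold. Set against the WT column of the nrpd1-/- table, HINKEL was at −2.03 in mat nrpd1+/- and −2.08 in pat nrpd1+/-, both past 2-fold.

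MAP65-3, the midzone bundling protein, was lower than WT in nrpd1-/- with the WT column of that table alone. It lies on chromosome 5 from 20960779 to 20964537 on the minus strand. MAP65-3 was at 18.4 FPKM in nrpd1-/- against 41.1 FPKM in WT (log2 ratio −1.15). It was at 18.1 FPKM in mat nrpd1+/- against 20.7 FPKM in WT (log2 ratio −0.20) and at 9.73 FPKM in pat nrpd1+/- against 18.3 FPKM in WT (log2 ratio −0.90). Its WT value was 2.21 times higher in the nrpd1-/- table than in the mat nrpd1+/- table after centring. With the WT column of the mat nrpd1+/- table, the log2 ratio in nrpd1-/- was −0.0098, and with that of the nrpd1-/- table it was −1.34 in mat nrpd1+/- and −2.04 in pat nrpd1+/-. The value in nrpd1-/- itself was level with that in mat nrpd1+/-, and the call of a lower MAP65-3 rests on the WT column.

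**Figure D3:**
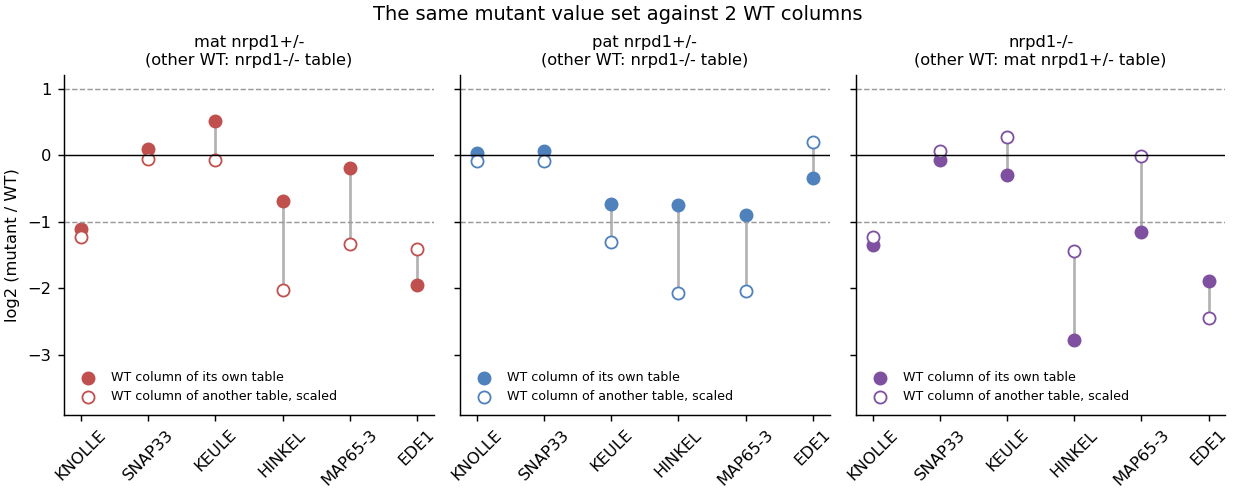
Log2 of mutant over WT for the 6 genes when each mutant value is set against the WT column of its own table (filled) or against the WT column of another table after scaling on the median ratio (open). KNOLLE (−1.35 and −1.23 in nrpd1-/-) and SNAP33 barely move, HINKEL in nrpd1-/- is −2.78 or −1.44, and MAP65-3 in nrpd1-/- is −1.15 or −0.0098.

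EDE1, the endosperm microtubule-associated protein, was well below WT in both genotypes with nrpd1-/- mothers. It was at 1.78 FPKM in mat nrpd1+/- against 7.20 FPKM in WT (24.8%, log2 ratio −1.95) and at 1.10 FPKM in nrpd1-/- against 4.39 FPKM in WT (25.2%, log2 ratio −1.90). Its level in pat nrpd1+/- was 4.99 FPKM against 6.34 FPKM in WT (78.7%, log2 ratio −0.34). The gene lies on chromosome 2 from 18272119 to 18274679 on the plus strand, inside the introgressed region from 14524607 to 19696821. In mat nrpd1+/- and nrpd1-/- its maternal allele is therefore of Col-0 and not of Ler sequence, and this cannot be told apart from the loss of NRPD1. In that region 14.7% of 1052 genes were at least 2-fold lower in mat nrpd1+/- and 9.98% of 1032 genes in nrpd1-/-, beside 16.3% and 10.1% outside. A share over many genes does not show what the Col-0 allele does at EDE1, which was not tested.

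FU, the kinase at AT1G50240 on chromosome 1 from 18606511 to 18614500, also lies in an introgressed region. It was at 2.40 FPKM in mat nrpd1+/- against 3.02 FPKM in WT, at 1.30 FPKM in pat nrpd1+/- against 2.67 FPKM in WT, and at 2.08 FPKM in nrpd1-/- against 8.37 FPKM in WT. The log2 ratios were −0.32, −0.99 and −1.96. WT FU was 3.03 times higher in the nrpd1-/- table than in the mat nrpd1+/- table after centring, and with the WT column of the mat nrpd1+/- table its log2 ratio in nrpd1-/- was −0.36.

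Of the 5 members outside the introgressed regions, 1 was at least 2-fold lower in mat nrpd1+/- (KNOLLE), 0 in pat nrpd1+/- and 3 in nrpd1-/- (KNOLLE, HINKEL and MAP65-3). On the deposited scale none was at least 2-fold higher in any genotype. The median log2 ratio of the 5 was −0.20 in mat nrpd1+/-, −0.73 in pat nrpd1+/- and −1.15 in nrpd1-/-, beside −0.08, 0.06 and −0.01 over all genes. In mat nrpd1+/- the share is that of 1 gene and near the background, and in nrpd1-/- 3 of 5 stand beside 10.1% of all genes. With EDE1 included, the medians were −0.45, −0.53 and −1.25. Scaling each column to its nuclear genes shifts every log2 ratio by 0.56 in mat nrpd1+/-, by −0.29 in pat nrpd1+/- and by 0.09 in nrpd1-/-, and the median of all genes in mat nrpd1+/- is then 0.47. On that scale KNOLLE is at −0.54 in mat nrpd1+/- and not past 2-fold, KEULE is at 1.07 and past 2-fold above WT, and the median of the 5 members there is 0.36. KEULE, HINKEL and MAP65-3 are past 2-fold below WT in pat nrpd1+/-, at −1.01, −1.02 and −1.19.

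These log2 ratios moved with transcript length. In pat nrpd1+/-, the median log2 ratio of all genes was 0.52 for transcripts of over 500 up to 1000 bases and −0.80 for those of over 3000 up to 4000 bases. The order was the other way in mat nrpd1+/-, with −0.69 and 0.36, and in nrpd1-/- the medians were 0.37 and −0.31. The log2 ratio of the WT columns, nrpd1-/- table over mat nrpd1+/- table, had medians of −1.33 and 0.91 in the same classes. The members span much of this range, from 1386 bases for KNOLLE and 1523 bases for SNAP33 to 2651 bases for KEULE, 2735 bases for MAP65-3 and 3474 bases for HINKEL. No cause of the trend was tested.

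Each member was therefore set against genes of like length, by subtracting the median log2 ratio of the genes nearest in length, which was added after the data were seen. In pat nrpd1+/-, the values of HINKEL and KEULE then became 0.09 and −0.21 and that of MAP65-3 became −0.37, at percentiles 60.2, 27.5 and 16.5 of all genes. In nrpd1-/-, KNOLLE was at −1.44, HINKEL at −2.47 and MAP65-3 at −0.94, which leaves KNOLLE and HINKEL past 2-fold. In mat nrpd1+/-, KNOLLE was at −0.89 and no longer past 2-fold, while HINKEL was at −1.06 and past it. With the trend removed, 11.6% of all genes were at least 2-fold lower in mat nrpd1+/-, 3.3% in pat nrpd1+/- and 9.04% in nrpd1-/-. For the WT columns, the higher HINKEL and MAP65-3 in the nrpd1-/- table stood beside medians of 0.90 and 0.62 for genes of like length, which leaves log2 ratios of 0.44 and 0.53.

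**Figure D4:**
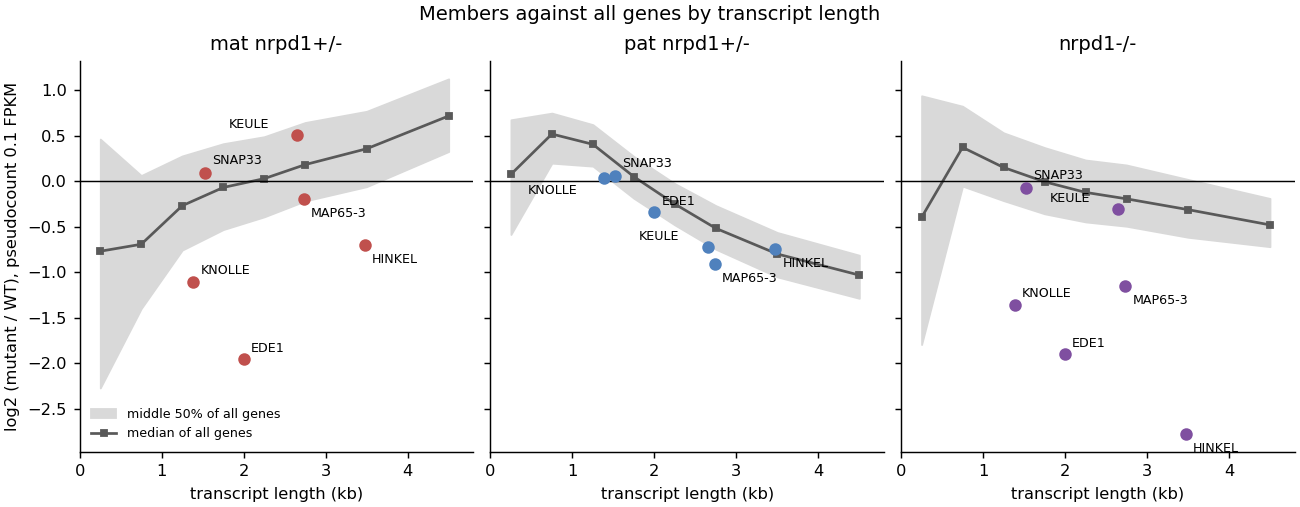
Log2 of mutant over WT against transcript length in kb for the 6 genes (coloured points) and for all genes outside introgressed regions in length classes (line, median; grey band, middle 50%; the last point stands for all transcripts of over 4000 bases). In pat nrpd1+/- the genes go down with the trend, which reaches −0.80 for transcripts of over 3000 up to 4000 bases, though KNOLLE, EDE1 and MAP65-3 are below the middle 50% of their length class, while in nrpd1-/- KNOLLE (−1.35), HINKEL (−2.78), MAP65-3 (−1.15) and EDE1 (−1.90) are below it.

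Other genes that act in mitosis and cytokinesis were read from lists. The list whose medians lay nearest to the values of KNOLLE was that of M phase genes, the B-type cyclins, CDKB kinases, CDC20 and Aurora kinases that drive or carry out mitosis. Of 10 tested outside introgressed regions, 5 were at least 2-fold lower in mat nrpd1+/-, 0 in pat nrpd1+/- and 8 in nrpd1-/-, with none higher. The shares of all genes that were lower were 16.3%, 6.92% and 10.1%, and the list medians were −1.08, 0.15 and −1.68. With the length trend removed, 5, 0 and 8 of 10 were again past 2-fold, with medians of −0.99, 0.05 and −1.69. The shares of all genes were then 11.6%, 3.3% and 9.04%. The scaling to nuclear genes, a shift of 0.56 in mat nrpd1+/-, was not applied to the lists. The count of 5 in mat nrpd1+/- therefore holds for the deposited scale only. With the WT columns exchanged, 8, 2 and 6 of 10 were at least 2-fold lower, and 1 was higher in pat nrpd1+/-, beside 10.8%, 21.7% and 19.0% of all genes that were lower. CYCB1;2 (AT5G06150), a mitotic cyclin, was at 13.5 FPKM in mat nrpd1+/- against 48.1 FPKM in WT, at 43.9 FPKM in pat nrpd1+/- against 42.3 FPKM in WT and at 6.42 FPKM in nrpd1-/- against 29.0 FPKM in WT. CDKB1;1 (AT3G54180), a plant kinase of the G2 to M phase, was at 8.01 FPKM in mat nrpd1+/- against 29.1 FPKM in WT and at 6.07 FPKM in nrpd1-/- against 18.5 FPKM in WT. AUR2 (AT2G25880) was the M phase gene nearest to WT, with 29.3 FPKM in mat nrpd1+/- against 26.8 FPKM in WT and 36.3 FPKM in nrpd1-/- against 49.1 FPKM in WT. The AACGG core was found in 7 of all 13 listed M phase genes, introgressed ones included, and 4 of them had 2 or more matches. Of all protein-coding genes, 20.6% had a match and 3.62% had 2 or more. A match was also found in 9 of 18 cell plate genes and 6 of 12 phragmoplast kinases and kinesins. It was found in 2 of 15 augmin and nucleation genes and 1 of 8 other MAP65 genes.

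The kinases and kinesins that work with HINKEL at the phragmoplast were low in nrpd1-/- against the WT column of that table. The signalling cascade downstream of HINKEL holds the kinases ANP1 to ANP3, MKK6 and MPK4. Of the list's genes, 7 of 10 tested were at least 2-fold lower in nrpd1-/-, 1 of 8 in mat nrpd1+/- and 1 of 8 in pat nrpd1+/-. The shares of all genes that were lower were 10.1%, 16.3% and 6.92%, and the list medians were −1.42, −0.28 and −0.51. The counts in mat nrpd1+/- and pat nrpd1+/- are of 1 gene each and near those shares. With the length trend removed, 5 of 10, 2 of 8 and 0 of 8 were past 2-fold, beside 9.04%, 11.6% and 3.3% of all genes. With the WT columns exchanged, 3 of 10 were lower in nrpd1-/- (MKK6, TES and RUK), 5 of 8 in mat nrpd1+/- and 6 of 8 in pat nrpd1+/-. The shares of all genes were then 19.0%, 10.8% and 21.7%. The number of low kinesins and kinases in each genotype therefore rests on the WT column. TES (AT3G43210), a kinesin closely related to HINKEL, was at 5.94 FPKM in nrpd1-/- against 17.8 FPKM in WT (log2 ratio −1.57) and at 8.93 FPKM in mat nrpd1+/- against 15.2 FPKM in WT (log2 ratio −0.76). RUK (AT5G18700), a kinase-like microtubule-associated protein, was at 0.808 FPKM in nrpd1-/- against 6.32 FPKM in WT (log2 ratio −2.82) and at 1.14 FPKM in mat nrpd1+/- against 2.43 FPKM in WT (log2 ratio −1.02). MPK4 (AT4G01370), which also acts in defence signalling, was at 21.2 FPKM in nrpd1-/- against 22.7 FPKM in WT.

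Among the other genes of the MAP65 family, the values did not move one way. MAP65-4 (AT3G60840) was at 7.02 FPKM in mat nrpd1+/- against 23.2 FPKM in WT (log2 ratio −1.71) and at 3.13 FPKM in nrpd1-/- against 24.3 FPKM in WT (log2 ratio −2.92). MAP65-2 (AT4G26760) was at 24.96 FPKM in mat nrpd1+/- against 51.7 FPKM in WT (log2 ratio −1.05) and at 22.6 FPKM in nrpd1-/- against 55.5 FPKM in WT (log2 ratio −1.29). MAP65-6 (AT2G01910) was at 66.0 FPKM in mat nrpd1+/- against 29.6 FPKM in WT (log2 ratio 1.15) and at 74.4 FPKM in nrpd1-/- against 57.2 FPKM in WT (log2 ratio 0.38). Between the WT columns of the nrpd1-/- and mat nrpd1+/- tables, MAP65-4 and MAP65-2 had log2 ratios of 0.23 and 0.26, and MAP65-6 had one of 1.11. Of 5 family members tested, 2 were lower and 1 higher in mat nrpd1+/-, 1 lower in pat nrpd1+/- and 2 lower in nrpd1-/-. Of all genes, 16.3% were lower and 13.4% higher in mat nrpd1+/-, 6.92% lower in pat nrpd1+/- and 10.1% lower in nrpd1-/-. With the length trend removed, MAP65-2 and MAP65-4 were still past 2-fold in mat nrpd1+/- and nrpd1-/-, MAP65-6 was at 0.83 in mat nrpd1+/- and no longer past it, and none was lower in pat nrpd1+/-. Of all genes, 11.6%, 9.04% and 3.3% were then lower in mat nrpd1+/-, nrpd1-/- and pat nrpd1+/-. With the WT columns exchanged, MAP65-6 was at 0.05 in mat nrpd1+/- and 1.49 in nrpd1-/-.

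**Figure D5:**
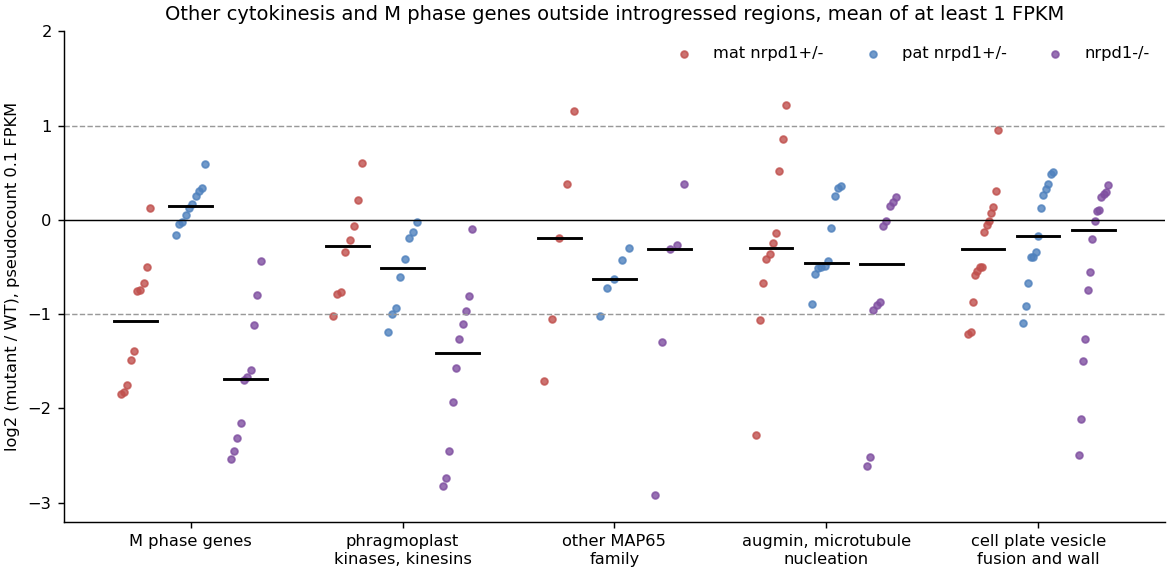
Log2 of mutant over WT with a pseudocount of 0.1 FPKM for genes of 5 lists outside introgressed regions with a mean of at least 1 FPKM (points, 1 per gene; black lines, list medians), by genotype; dashed lines mark 2-fold. M phase genes have medians of −1.08 in mat nrpd1+/-, 0.15 in pat nrpd1+/- and −1.68 in nrpd1-/-. The cell plate fusion list has medians of −0.31, −0.17 and −0.11, nearer to 0 than the M phase genes in mat nrpd1+/- and nrpd1-/- only.

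The lists of microtubule nucleation and of the cell plate had list medians nearer to 0 than the M phase genes in mat nrpd1+/- and nrpd1-/-, and some of their genes were low. Of 10 augmin and nucleation genes, 2 were at least 2-fold lower and 1 higher in mat nrpd1+/-, 0 in pat nrpd1+/- and 2 lower in nrpd1-/-, beside 16.3%, 6.92% and 10.1% of all genes that were lower. AUG3, AUG5 and TUBG1 were at −0.91, −0.87 and −0.96 in nrpd1-/-, short of 2-fold. The 2 lower genes in both were EB1C (AT5G67270), a plus-end protein of the spindle and phragmoplast, and TPX2 (AT1G03780), a spindle assembly factor. EB1C was at 31.2 FPKM in mat nrpd1+/- against 152 FPKM in WT and at 19.4 FPKM in nrpd1-/- against 111 FPKM in WT, and at 171 FPKM in pat nrpd1+/- against 133 FPKM in WT. TPX2 was at 5.01 FPKM in mat nrpd1+/- against 10.5 FPKM in WT and at 2.31 FPKM in nrpd1-/- against 14.6 FPKM in WT. Of 14 cell plate vesicle fusion and wall genes, 2 were lower in mat nrpd1+/- and 4 in nrpd1-/-, and 1 of 13 was lower in pat nrpd1+/-, against the same shares of all genes. With the WT columns exchanged, 3, 6 and 2 of 10 nucleation genes and 1 of 14, 4 of 13 and 4 of 14 cell plate genes were lower in mat nrpd1+/-, pat nrpd1+/- and nrpd1-/-. Of all genes, 10.8%, 21.7% and 19.0% were then lower. In pat nrpd1+/- 1 nucleation gene and 1 cell plate gene were then higher, and in nrpd1-/- 2 and 1. With the length trend removed, 2, 0 and 2 of 10 nucleation genes were lower in the same order. For the cell plate genes these counts were 1 of 14, 0 of 13 and 4 of 14, beside 11.6%, 3.3% and 9.04% of all genes. SYP112 (AT2G18260), the syntaxin most similar to KNOLLE, was at 2.35 FPKM in mat nrpd1+/- against 5.48 FPKM in WT (log2 ratio −1.19) and at 0.860 FPKM in nrpd1-/- against 4.05 FPKM in WT (log2 ratio −2.11). The widely used SNAREs did not all stay near WT. VAMP721 (AT1G04750) was at 148 FPKM in nrpd1-/- against 125 FPKM in WT, and SYP71 (AT3G09740) at 80.03 against 74.5 FPKM. SYP71 was at −0.50 in mat nrpd1+/-. With the WT columns exchanged it was at 1.17 in pat nrpd1+/- and −0.73 in nrpd1-/-. SNAP29 (AT5G07880), a SNAP25-type gene as SNAP33 is, was lower, at −1.21 in mat nrpd1+/- and −1.50 in nrpd1-/-. SEC1B (AT4G12120) was at −1.26 in nrpd1-/-.

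The genes that set the time of cellularization were at the low end of these tables. AGL62, the MADS-box gene whose activity holds endosperm in the syncytial state, was at 0.283 FPKM or less in every column, and MEA, a Polycomb gene, was at 0.278 FPKM or less. None of the 4 genes of that list could be used outside introgressed regions at a mean of 1 FPKM. CUC1 (AT3G15170), on the embryo marker list, was low in the same columns as KNOLLE, at 12.8 FPKM in mat nrpd1+/- against 31.4 FPKM in WT and at 12.3 FPKM in nrpd1-/- against 26.95 FPKM in WT. ATML1, on the same list, was above WT in both, with log2 ratios of 2.33 and 0.96, or 0.10 and 3.19 with the WT columns exchanged. Of the embryo markers, 7 of 11 were under 1 FPKM in all 3 mutant columns, and the part of such cells in the KNOLLE values was not tested.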

How the data were processed

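Endosperm mRNA libraries were compared between mat nrpd1+/-, pat nrpd1+/-, nrpd1-/- and WT. The authors trimmed reads with Trim Galore, aligned them to TAIR10 with TopHat and ran Cuffdiff, named as version 2.2.1 in the submitters' processing notes, whereas the study's methods name an earlier release. The deposited FPKM values are 1 pooled value per genotype and table, and the authors scaled each table on its own, so levels were compared within tables. The authors' columns of fold changes, test statistics, p-values and q-values, which hold their own comparison, were not used. Which WT libraries entered each table is not given in the sources used here. Depth per value is unknown, and no interval could be given.

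Log2 ratios used a pseudocount of 0.1 FPKM, a minimum mean of 1 FPKM and a 2-fold threshold, which understates changes of low genes. Genes overlapping the 12 introgressed regions deposited by the authors (6867 genes) were left out of backgrounds and counts. With 1 value per genotype there was no test. Names, transcript lengths (longest RefSeq transcript) and upstream sequences came from RefSeq TAIR10.1, in which 26789 of 26795 loci with a single gene had the start and end given in the tables. Of the listed entries PAKRP2 did not match its name in RefSeq and was left out. Named genes were the members, the examples of the pathway lists, and the 5 genes nearest to the median member in the 3 log2 ratios. Members and lists were chosen with earlier results of these data known. Alternatives covered pseudocount, centring, scaling, threshold, filter, introgressed genes, WT column and, added after the data were seen, transcript length and the WT column for the lists. The code was tested on simulated data. Python 3.11.15, numpy 2.4.6, pandas 2.3.3 and matplotlib 3.10.9 were used.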

Additional observations from a re-analysis of the deposited data

How the results depend on the processing

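With a pseudocount of 1 FPKM, no pseudocount, centring, no filter on low values or a filter of 5 FPKM, no count of members past 2-fold and no median moved past 1.5 times or across 2-fold. The WT column of another table moved most: 3 of 5 members were past 2-fold in mat nrpd1+/-, 3 of 5 in pat nrpd1+/- and 2 of 5 in nrpd1-/-, beside 25.03%, 53.5% and 40.3% of all genes in either direction, and the medians were −1.22 in mat nrpd1+/-, −1.30 in pat nrpd1+/- and −0.0098 in nrpd1-/-. A threshold of 1.5-fold gave 2 of 5 members in mat nrpd1+/- (50.4% of all genes) and 3 of 5 in pat nrpd1+/- (34.9%), and one of 3-fold gave 0 in mat nrpd1+/- (15.6%) and 1 in nrpd1-/- (10.9%). Keeping introgressed genes gave 2 of 6 members in mat nrpd1+/- (30.2%). Scaling to nuclear genes gave 3 members and a median of −1.01 in pat nrpd1+/-, beside 15.5% of all genes. The same scaling in mat nrpd1+/- turned the median to 0.36, and the 1 member past 2-fold was then KEULE, higher at 1.07, in place of KNOLLE at −0.54, beside 35.9% of all genes past 2-fold. With the length trend removed, the median in nrpd1-/- was −0.94. The cause of these shifts was not tested. No called value changed sign, and of 108 single-gene values under alternatives 16 moved. No paired analysis was possible because each genotype has 1 pooled column, and for the same reason no replicate could be left out. Without read counts, a depth limit could not be set.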

Other observations

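Among 8241 genes outside introgressed regions with a mean of at least 5 FPKM in each table, the 5 genes nearest to the median of the 5 members in the 3 log2 ratios were AT5G48460, AT3G06340, XLG1 (AT2G23460, an extra-large G protein), AT5G19675 and AT1G05150. Their distances were 0.12 to 0.22 on the log2 scale over 3 values. AT5G48460 had log2 ratios of −0.22 in mat nrpd1+/-, −0.70 in pat nrpd1+/- and −1.04 in nrpd1-/-, beside −0.20, −0.73 and −1.15 for the median member. Around KNOLLE alone, chosen after its values were seen, the nearest gene was AT3G20270, at −1.05, −0.03 and −1.31.

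Some genes on the marker lists were above WT in mat nrpd1+/- and nrpd1-/-, with BAN, TTG2 and ATML1 among them. Others on the same lists were below WT in both. In nrpd1-/- MUM2, MUM4, TT16, CUC1 and ZLL were at log2 ratios of −1.12, −0.97, −0.42, −1.12 and −0.98. BAN (AT1G61720), of the seed coat list and inside an introgressed region, was at 40.2 FPKM in mat nrpd1+/- against 27.9 FPKM in WT. In nrpd1-/- BAN was at 30.8 FPKM against 8.84 FPKM in WT. BAN was also above WT in pat nrpd1+/-, at 45.7 FPKM against 24.4 FPKM. Its WT columns, nrpd1-/- table over mat nrpd1+/- table, had a centred log2 ratio of −1.49. TTG2 (AT2G37260), a WRKY gene of the seed coat list, was at 12.4 FPKM in mat nrpd1+/- against 1.80 FPKM in WT and at 11.8 FPKM in nrpd1-/- against 2.09 FPKM in WT, inside an introgressed region. ATML1 (AT4G21750), an epidermal homeobox gene of the embryo list, was at 13.4 FPKM in mat nrpd1+/- against 2.59 FPKM in WT and at 21.9 FPKM in nrpd1-/- against 11.2 FPKM in WT. With the WT columns exchanged, the log2 ratio of ATML1 was 0.10 in mat nrpd1+/- and 3.19 in nrpd1-/-, so its value in mat nrpd1+/- rests on the WT column.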
